A study of Mus musculus with 6 samples.

Results

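The 38 genes described here make or serve the protein folding machinery of the endoplasmic reticulum (ER), or belong to the stress responses that adjust it. They were taken by gene symbol from a list of ER oxidative folding, unfolded protein response and integrated stress genes, and were compared between mouse beige adipocyte cultures expressing PPARγ2 K382Q or PPARγ2 K382R. The tables held 56884 gene IDs. All 38 genes were among the 15426 genes tested, which reached 0.5 TPM (transcripts scaled to a fixed total per library) in at least 3 of the 6 libraries. The symbol *Ddit3* also stood at a second gene ID, which was listed at 0 in every library and was left aside.

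The cells were a line made from the stromal vascular fraction, the adipocyte precursor fraction, of mouse subcutaneous white adipose tissue (scWAT). Retroviral vectors brought in mouse PPARγ2, the master regulator of adipocyte differentiation, with lysine 382 changed to glutamine (K382Q, which resembles acetylated lysine) or to arginine (K382R, which resembles deacetylated lysine). Stable lines were obtained by puromycin selection, and the endogenous *Pparg* gene remained in both. RNA was sequenced on day 2 of beige differentiation in medium with isobutylmethylxanthine, indomethacin, dexamethasone, insulin, T3 and rosiglitazone, in 3 libraries labelled as biological replicates of each mutant. Both groups carried a PPARγ2 mutant, and no cells without a transgene were analysed here. The labels do not say whether replicates came from separate infections, so the p-values measure the spread between these libraries. Permuting the labels of 3 and 3 libraries exactly would give a two-sided p of 0.1 at best for any 1 gene. Each p below therefore comes from limma on log2(TPM + 0.5) over all genes tested, with Benjamini-Hochberg adjustment. A gene was called at an adjusted p under 0.05.

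Proteins that enter the ER are folded by chaperones and cross-linked by disulfide bonds. Protein disulfide isomerases (PDIs) make the bonds, and ERO1 oxidases recharge the PDIs with the help of oxygen. When unfolded protein builds up, 3 membrane sensors (IRE1, PERK and ATF6) start the unfolded protein response, which raises chaperones and degradation factors and, through PERK and the factor ATF4, amino acid and stress genes. The same ATF4 branch answers other stresses, such as a lack of amino acids, and is then called the integrated stress response. Adipocytes use this machinery to make secreted proteins such as adiponectin and to assemble lipid-handling enzymes.

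The total length of aligned reads was 5.95 to 7.5 Gb in K382Q and 6.53 to 8.15 Gb in K382R libraries, and 22663 to 23837 genes were above 0. No library was a copy of another, and the most alike pair had the same value in 0.0583% of genes. Genes named mt-, encoded in the mitochondrial genome, took 4.09 to 4.96% of the TPM in K382Q and 2.66 to 2.80% in K382R cells. TPM are shares of a fixed total, and the median log2 fold change of all genes tested (K382Q against K382R) was -0.135. It was 0.004 after median-ratio scaling, which divides each library by its typical ratio to the others. All folds below are on the TPM scale unless stated otherwise, and the median gene lies at -0.135 on that scale. In these bulk samples, fewer cells of a type and less RNA per cell cannot be told apart. *Pparg*, which the reads of the transgene and of the endogenous gene share, had TPM of 1333, 1164 and 1104 in K382Q and 1590, 1632 and 1612 in K382R cells. It was lower in every K382Q library, with a log2 fold change of -0.43 (SE 0.0638, adjusted p = 0.000977, limma). The part of this difference in the values below was not tested.

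The labelled cell type was checked against marker genes. All 10 adipocyte markers were tested, and their summed TPM was 53906 ± 2076 (SD, n = 3) in K382Q and 43613 ± 659.6 (SD, n = 3) in K382R cells, most of it from *Fabp4*. Of the 10, 4 rose and 3 fell, and their median log2 fold change was -0.04, so they did not move as a set. The tested progenitor and fibroblast markers were lower in K382Q cells: 6 of 10 were tested and all 6 fell. The summed TPM of these 6 was 570 to 615 in K382Q and 939.6 to 978 in K382R cells. *Dpp4*, which was not tested, was listed at 0 throughout. The leukocyte markers *Adgre1* and *Cd3e* were listed at 0 in every library, and *Cd68*, the only leukocyte marker tested, had 3.17 to 5.1 TPM with overlapping libraries (not called). Of the 6 endothelial markers only *Pecam1* was tested, at a TPM of 1.5 to 2.08. The part that the fall of the progenitor and fibroblast markers has in the values below was not tested.

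The ER and stress genes were abundant in both mutants. The median of their mean TPM was 125, against 15.2 for all genes tested, 36 of the 38 were above the median gene, and 24 had a mean TPM of at least 100. *P4hb*, *Hspa5*, *Atf4*, *Hsp90b1* and *Calr* were at the top, with group means between 616 and 1240.2. *Ero1b*, *Pdia5* and *Eif2ak3* were at the bottom, with group means between 10.5 and 18.9. The lowest coverage of any member in any library was 5.91 reads per base. Between the mutants, 12 members rose in K382Q cells, 15 fell and 11 were not called (limma with Benjamini-Hochberg adjustment). Among all genes tested, 11.1% rose, 36.9% fell and 48.1% were called in either direction. The libraries of the mutants did not overlap for 31 of the 38, where 57% of all genes tested showed none. Only *Ero1a* changed by more than 2-fold, as 3.88% of all genes tested did. The median log2 fold change of the 38 was -0.04, which is 0.09 above the median of all genes tested. After median-ratio scaling, 17 rose and 9 fell with a median of 0.11, beside 19.9% and 20.4% of all genes tested. Under quantile normalization 13 rose and 9 fell, with a median of 0.00, where the median of all genes tested was -0.005. The shares of all genes called on that scale are not given, so these counts cannot be set against them. The call was the same on the TPM, FPKM, median-ratio and quantile scales for 22 genes: 9 that rose, 8 that fell and 5 that were not called. For the other 16 genes it differed between the scales.

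**Figure D1:**
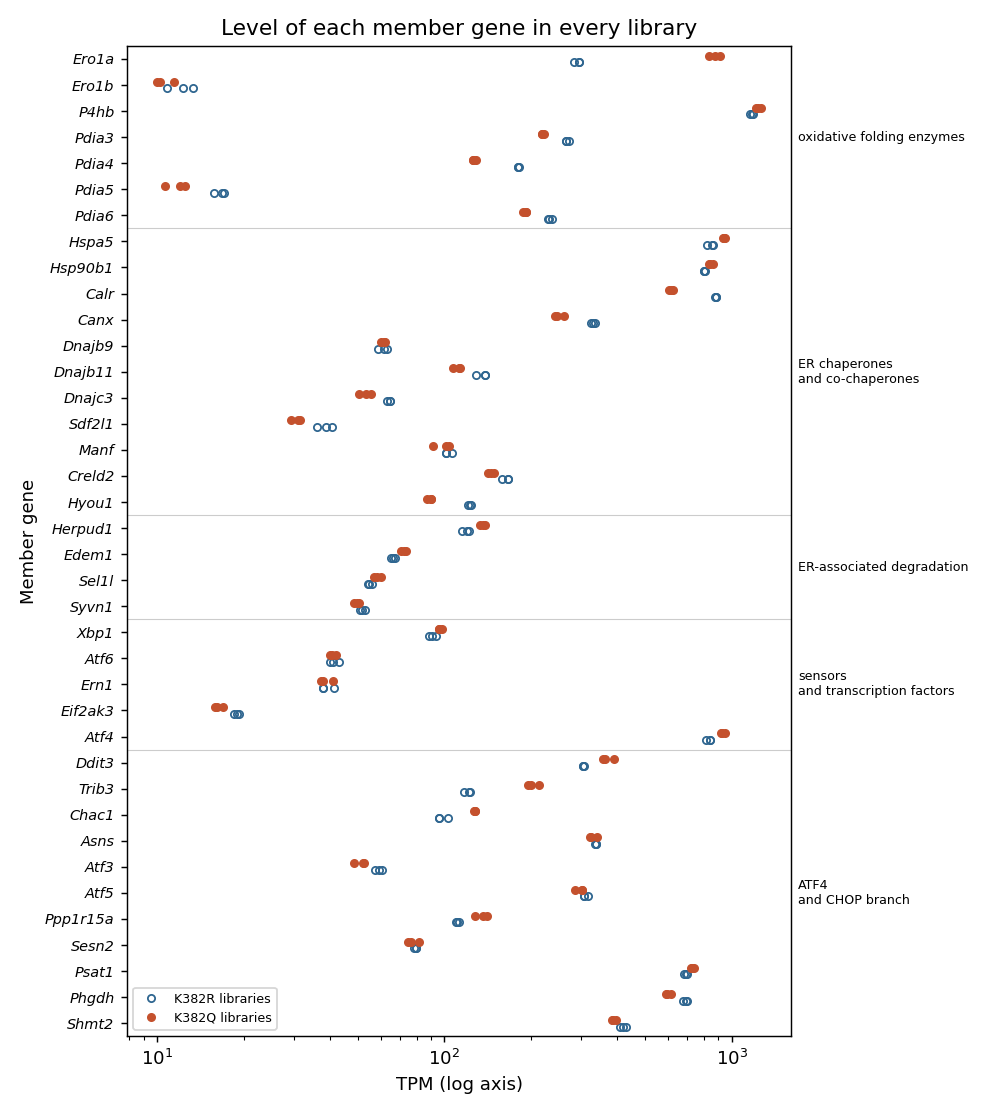
Level of each of the 38 genes in every library, in TPM on a log axis, ordered by role; filled points are K382Q libraries and open points K382R libraries (n = 3 each). *Ero1a* stands apart, with K382Q libraries at 831 to 910.3 TPM and K382R libraries at 283 to 295 TPM, while most other genes lie close together.

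The oxidative folding enzymes moved in opposite directions. Of 7 genes, the oxidase *Ero1a* and the abundant isomerase *P4hb* rose, the isomerases *Pdia3*, *Pdia4*, *Pdia5* and *Pdia6* fell, and the second oxidase gene *Ero1b* was not called (limma with Benjamini-Hochberg adjustment). The median log2 fold change of the 7 was -0.28, and it was -0.13 after median-ratio scaling, with the same number in each direction (2 and 4). Of all genes tested, 11.1% rose and 36.9% fell, or 19.9% and 20.4% after median-ratio scaling.

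*Ero1a* (ENSMUSG00000021831.10, chr14:45520544-45556228 of GRCm39, minus strand) encodes the ER oxidase that passes electrons from PDIs to oxygen. Its TPM was 910.3, 875 and 831 in the K382Q libraries and 283, 295 and 293 in the K382R libraries. Every K382Q library lay far above every K382R library, and the spread within a mutant was small beside the gap. The means were 872 ± 39.6 (SD, n = 3) and 291 ± 6.29 (SD, n = 3), a 3.0-fold difference, or 1.58 on the log2 scale (SE 0.0384, adjusted p = 2.77e-07, limma with Benjamini-Hochberg adjustment). With each library left out in turn the log2 fold change stayed between 1.55 and 1.62. The oxidase is known to aid the release of adiponectin from adipocytes, and the adiponectin gene *Adipoq* had TPM of 147 to 149 in K382Q and 346 to 383 in K382R cells, so it fell by 1.28 on the log2 scale (adjusted p = 7.63e-07, limma). The study singled out *Ero1a* from the same libraries, so its rise is not independent evidence. *Ero1a* is also known as a gene induced by low oxygen. The core letters of the hypoxia response element, ACGTG on either strand, were found in the RefSeq promoters (250 bases before to 50 after each start) of 13 of the 35 members with a promoter in the table. That is 35.1% of 37 member promoters, against 19.6% of all 32851 promoters. In *Ero1a* the letters stand on the other strand, 63 to 59 bases before the RefSeq start. That start lies inside the longer gene of the tables, so the stretch is not upstream of the latter. It is shown because this is the gene that changed most, and lies at chr14:45556075-45556104 (GRCm39, minus strand), and the capitals mark the core.
Ero1a: cgcgcgccgctgCACGTccgcaggggaggc

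*Ero1b* encodes a paralog of the same oxidase and was much rarer. Its TPM was 11.4, 10.0 and 10.2 in K382Q and 12.3, 10.8 and 13.3 in K382R cells. The libraries overlapped, and the log2 fold change of -0.19 was not called (adjusted p = 0.128, limma). The ratio of *Ero1a* to *Ero1b* TPM was 82.9 ± 3.9 (SD, n = 3) in K382Q and 24.2 ± 2.81 (SD, n = 3) in K382R cells, so *Ero1a* was the prevailing oxidase transcript in both.

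*P4hb* (ENSMUSG00000025130.12, chr11:120451124-120464079, minus strand) encodes the founding PDI, a client of ERO1 and also a subunit of collagen prolyl 4-hydroxylase. It was the most abundant member, with TPM of 1217, 1266 and 1237 in K382Q and 1162, 1184 and 1179 in K382R cells. The K382Q libraries lay above the others by a narrow margin. Its log2 fold change was 0.08 (SE 0.0275, adjusted p = 0.0486, limma), and it was -0.05 and not called under quantile normalization. The call was borderline, and it was lost without any of 5 of the 6 libraries (adjusted p of 0.0875 to 0.161, limma). With each library left out in turn, the log2 fold change of *P4hb* stayed between 0.06 and 0.09. The ratio of *Ero1a* to *P4hb* TPM went from 0.247 ± 0.00304 (SD, n = 3) in K382R to 0.704 ± 0.0396 (SD, n = 3) in K382Q cells.

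The other isomerases fell without overlap of the libraries. *Pdia4* had TPM of 129, 126 and 126 in K382Q and 181, 181 and 182 in K382R cells, a log2 fold change of -0.51. *Pdia5*, a low transcript at 10.6 to 12.5 TPM against 15.7 to 17.1, followed with -0.48. *Pdia3*, which works on glycoproteins together with calnexin and calreticulin, and *Pdia6*, a regulator of IRE1 and PERK as well as an isomerase, both had -0.28. The fall of all 4 was called on each of the 4 scales. Summed over the 7 enzymes, TPM was 2672 ± 39.2 (SD, n = 3) in K382Q and 2175 ± 22.7 (SD, n = 3) in K382R cells. Without *Ero1a* the order turned, at 1800.1 ± 23.6 against 1884 ± 16.5 (SD, n = 3 each). *Ero1a* made up 31.6 to 33.9% of the summed TPM in K382Q libraries and 13.2 to 13.5% in K382R libraries.

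**Figure D2:**
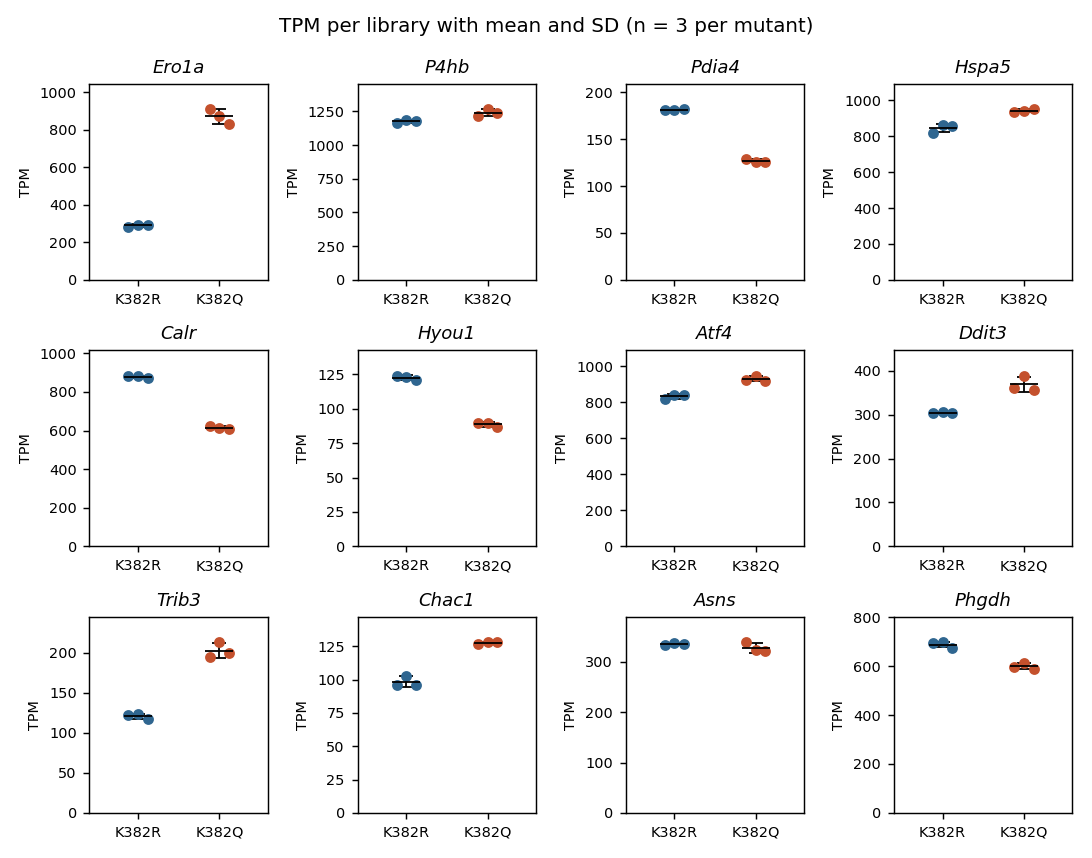
TPM of 12 members in each library (points), with mean and SD (bars, n = 3 per mutant); every axis starts at 0. *Ero1a* and *Trib3* are clearly higher in K382Q cells, *Pdia4*, *Calr* and *Hyou1* clearly lower, *Hspa5* and *Atf4* differ by small amounts, and *Asns* overlaps.

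Of the 11 chaperones and co-chaperones, only *Hspa5* rose, 7 fell and 3 were not called (limma with Benjamini-Hochberg adjustment), beside 11.1% higher and 36.9% lower among all genes tested. Their median log2 fold change was -0.27, against -0.135 for all genes tested, and their summed TPM was 3241 ± 37.2 (SD, n = 3) in K382Q and 3546 ± 17.8 (SD, n = 3) in K382R cells. After median-ratio scaling 3 rose and 5 fell, beside 19.9% and 20.4% of all genes tested, and the median was -0.12.

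Several of these genes share a regulatory sequence, the ER stress response element (ERSE), which the factors ATF6 and NF-Y bind. Its letters are CCAAT, then 9 bases of any kind, then CCACG, and they were searched on both strands. They were found in the promoters of 9 members, 24.3% of the 37 member promoters, against 0.119% (39) of all 32851 promoters of the table. The members were listed as genes of this response, so the higher share comes with the list and is not a result. The 10 matches are shown because these genes are the classical targets of the response and were called in both directions here. Each is read along the element, with the CCAAT and CCACG boxes in capitals. No 2 of them had the same spacer.
Hspa5: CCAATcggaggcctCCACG
Calr: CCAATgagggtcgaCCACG
Hsp90b1, upstream match: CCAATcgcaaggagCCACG
Hsp90b1, downstream match: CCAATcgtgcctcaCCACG
Canx: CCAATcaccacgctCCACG
Pdia6: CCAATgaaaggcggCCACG
Ero1b: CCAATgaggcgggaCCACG
Dnajc3: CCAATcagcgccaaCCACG
Creld2: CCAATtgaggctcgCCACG
Syvn1: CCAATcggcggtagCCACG

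Among these 9 genes, *Hspa5* rose, *Calr*, *Canx*, *Pdia6*, *Dnajc3* and *Creld2* fell, and *Hsp90b1*, *Ero1b* and *Syvn1* were not called. Their median log2 fold change was -0.19, and -0.04 after median-ratio scaling, where 2 rose and 3 fell. The shares of all genes tested were 11.1% higher and 36.9% lower, or 19.9% and 20.4% after median-ratio scaling. The nearest match to the RefSeq start was that of *Syvn1*, 44 to 26 bases before it, and the farthest was the upstream one of *Hsp90b1*, 212 to 194 bases before it. The whole window between annotated exons around the element of *Calr*, chr8:85573668-85573750 (GRCm39, minus strand), is shown for its context, with the element in capitals on the opposite strand.
Calr: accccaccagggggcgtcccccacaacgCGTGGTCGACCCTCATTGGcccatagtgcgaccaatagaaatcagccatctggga

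*Hspa5* (ENSMUSG00000026864.14, chr2:34661982-34667559, plus strand) encodes BiP, the central ER chaperone, whose rise is the usual reading of the unfolded protein response. Its TPM was 937, 941 and 951 in K382Q and 819.8, 862 and 856 in K382R cells. All K382Q libraries lay above all K382R libraries, by a modest step. Its log2 fold change was 0.16 (SE 0.0292, adjusted p = 0.00303, limma with Benjamini-Hochberg adjustment). Under quantile normalization it was 0.08 and not called. In GENCODE M39, *Hspa5* shares 44.2% of its exonic bases with *Rabepk* on the other strand, and the library kit is not one that marks strand, so reads there cannot be told apart. *Rabepk* was low, at a mean TPM of 17.9 and 16.6.

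*Hsp90b1*, the ER member of the HSP90 family, had TPM of 831 to 859 in K382Q and 804 to 807 in K382R cells, a log2 fold change of 0.07 that was not called (adjusted p = 0.0633, limma). It was called higher with FPKM (0.15) and median-ratio scaling (0.22), and had -0.01 under quantile normalization. The lectin chaperones, which hold glycoproteins during folding, both fell. *Calr*, calreticulin, had TPM of 625, 614 and 607 in K382Q and 880.1, 884 and 872 in K382R cells, a log2 fold change of -0.51. *Canx*, calnexin, had 242 to 260.2 against 323 to 335, a log2 fold change of -0.40. Their libraries did not overlap, and their fall was called on all 4 scales.

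*Hyou1*, a nucleotide exchange factor of BiP, fell from 121 to 124 TPM in K382R cells to 86.8 to 89.9 in K382Q cells (log2 fold change -0.46). Among the J-domain partners of BiP, *Dnajb11* (-0.28) and *Dnajc3* (-0.27) fell and *Dnajb9*, at 60.1 to 62.2 against 58.6 to 63.1 TPM, overlapped (0.00). *Dnajc3* had -0.12 and -0.11 with median-ratio scaling and quantile normalization and was not called there, and *Dnajb9* had 0.16 and 0.17 and was called higher on both. *Sdf2l1*, which works with *Dnajb11*, fell by 0.33 on the log2 scale, and had -0.17 and was not called under quantile normalization. *Creld2*, a stress-induced ER resident, fell by 0.17, close to the median gene, and was not called on the other 3 scales. *Manf*, a secreted BiP cofactor, had -0.05 (adjusted p = 0.448, limma), and its libraries overlapped. The ratio of *Hspa5* to *Hsp90b1* was 1.12 ± 0.0236 (SD, n = 3) in K382Q and 1.05 ± 0.0274 (SD, n = 3) in K382R cells. The ratio of *Calr* to *Canx* was 2.46 ± 0.0678 and 2.67 ± 0.068 (SD, n = 3 each). Neither ratio overlapped between the mutants.

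**Figure D3:**
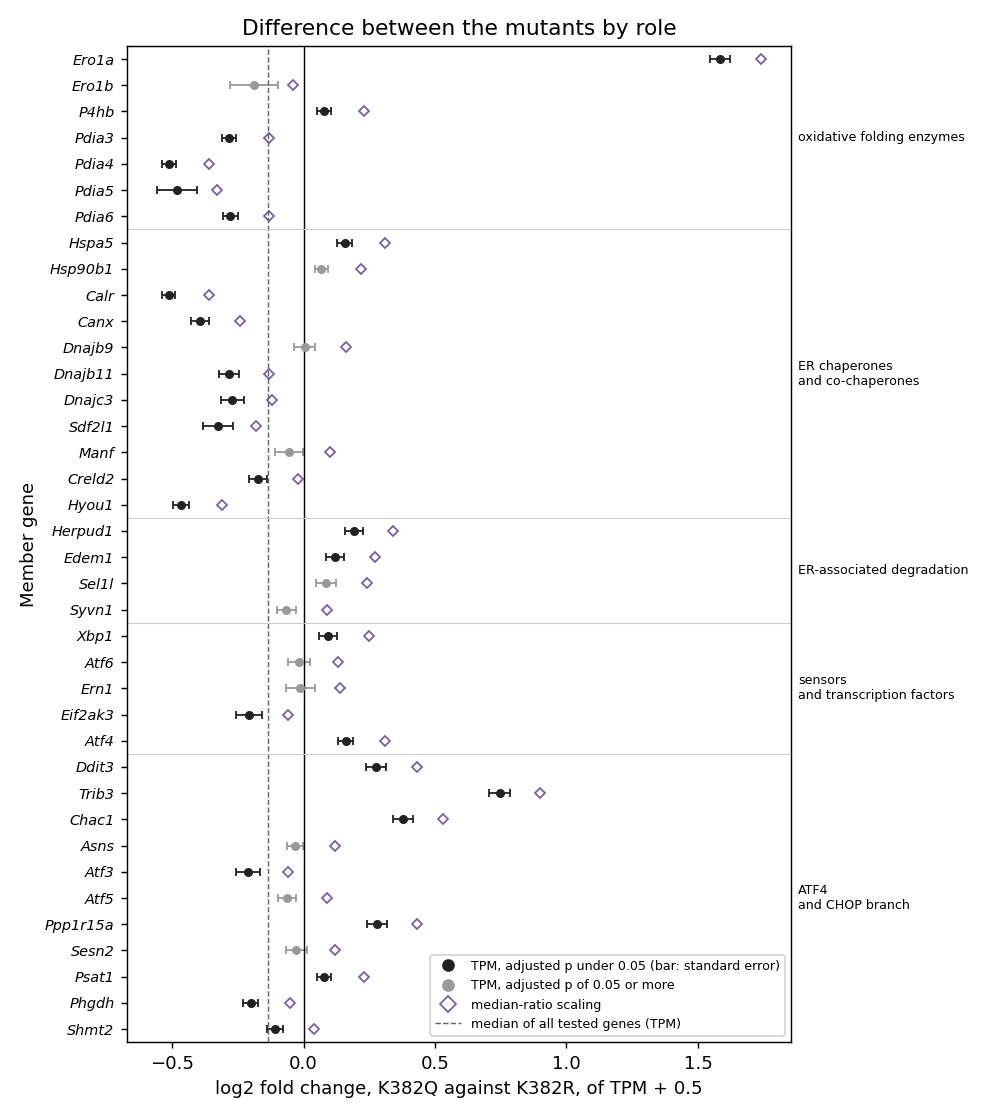
Log2 fold change of each member, K382Q against K382R, with its standard error (circles: TPM, black where the adjusted p is under 0.05; diamonds: median-ratio scaling), grouped by role. The dashed line is the median of all genes tested, -0.135; most chaperones lie to its left, and *Ero1a* (1.58), *Trib3* (0.75) and *Chac1* (0.38) lie far to its right.

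Of the 4 genes of ER-associated degradation, which returns misfolded proteins to the cytosol, *Herpud1* and *Edem1* rose, *Sel1l* and *Syvn1* were not called, and none fell (limma with Benjamini-Hochberg adjustment). The median log2 fold change was 0.10, which is 0.24 above that of all genes tested. On this scale 11.1% of all genes tested rose. After median-ratio scaling 3 rose and none fell, beside 19.9% and 20.4% of all genes.

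*Herpud1* (ENSMUSG00000031770.17, chr8:95113066-95122005, plus strand), a ubiquitin-like ER membrane protein, was the most abundant of them. Its TPM was 133, 138 and 136 in K382Q and 119.5, 122 and 115 in K382R cells, without overlap. The log2 fold change was 0.19 (SE 0.0331, adjusted p = 0.00209, limma), and 0.31 to 0.34 with quantile normalization and median-ratio scaling. Its promoter was the only one among the members to hold both a match to ERSE-II, a variant of the element (ATTGG, 1 base of any kind, CCACG, on either strand), and a match to the amino acid response element that ATF4 binds with C/EBP partners (CARE, TGATGNAA). ERSE-II was found in 2 members, 5.41% of member promoters against 0.0365% of all promoters, and the other was *Dnajb11*, 8 to 18 bases after its start. The *Herpud1* stretch that precedes the annotated exons, chr8:95112807-95113021 (GRCm39, plus strand), is shown with the CARE on the opposite strand and then the ERSE-II in capitals.
Herpud1: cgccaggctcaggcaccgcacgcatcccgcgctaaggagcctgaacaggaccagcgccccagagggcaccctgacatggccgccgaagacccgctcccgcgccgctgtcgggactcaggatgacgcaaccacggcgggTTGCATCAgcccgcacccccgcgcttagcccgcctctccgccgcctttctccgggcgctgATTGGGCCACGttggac

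*Edem1*, which picks out misfolded glycoproteins, had 70.4 to 73.6 TPM in K382Q and 65.0 to 67.5 in K382R cells (log2 fold change 0.12, adjusted p = 0.0213, limma), a call that was lost without any of 4 single libraries (adjusted p up to 0.0777). *Sel1l* and *Syvn1* encode the scaffold and the ligase of the same ubiquitin complex. *Sel1l* had 0.09 (adjusted p = 0.0904, limma) and was called higher on the other 3 scales, while *Syvn1* had -0.07 (adjusted p = 0.176) and was called on none.

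Among the sensors and transcription factors, *Xbp1* and *Atf4* rose, *Eif2ak3* fell, and *Atf6* and *Ern1* were not called (limma with Benjamini-Hochberg adjustment). Of all genes tested, 11.1% rose and 36.9% fell. All 5 differences in this group were small, and the median was -0.01. After median-ratio scaling 3 rose and none fell, beside 19.9% and 20.4% of all genes tested. The values of these 5 genes are transcript levels. The gene-level values do not separate spliced from unspliced *Xbp1*, and activation of the sensors themselves was not measured.

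*Ern1* (ENSMUSG00000020715.10, chr11:106285476-106378678, minus strand) encodes the sensor IRE1α. Its TPM was 41.0, 37.2 and 37.9 in K382Q and 37.7, 41.4 and 37.9 in K382R cells. The libraries were intermingled, with a log2 fold change of -0.01 (SE 0.0559, adjusted p = 0.882, limma). *Xbp1* (ENSMUSG00000020484.20, chr11:5470659-5475893, plus strand), the transcription factor whose mRNA IRE1 splices, had TPM of 95.8, 96.1 and 98.0 in K382Q and 88.1, 90.3 and 93.3 in K382R cells. These did not overlap, although the nearest libraries were close. Its log2 fold change of 0.09 (SE 0.0334) was at the threshold, with an adjusted p of 0.05 after rounding and just under it before (limma). It was lost without any of 5 single libraries (adjusted p of 0.0659 to 0.166).

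*Atf6* (ENSMUSG00000026663.7, chr1:170532243-170695340, minus strand) encodes the sensor that is cut to release a transcription factor. It had TPM of 39.8, 40.7 and 42.0 in K382Q and 40.1, 42.9 and 41.0 in K382R cells, which overlapped throughout. The log2 fold change was -0.02 (SE 0.0426, adjusted p = 0.78, limma), and 0.13 after median-ratio scaling, where it was called. *Eif2ak3* (ENSMUSG00000031668.15, chr6:70821499-70882229, plus strand) encodes PERK, the kinase that phosphorylates eIF2α. Its TPM was 16.1, 16.9 and 15.9 in K382Q and 19.0, 19.2 and 18.5 in K382R cells, lower in every K382Q library. The log2 fold change was -0.21 (SE 0.0503, adjusted p = 0.0106, limma), and it was not called on the other 3 scales, with -0.06 after median-ratio scaling.

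*Atf4* (ENSMUSG00000042406.9, chr15:80139385-80141742, plus strand), the factor that is translated when eIF2α is phosphorylated, was by far the most abundant of these transcripts. Its TPM was 925, 947 and 919.5 in K382Q and 816, 842 and 841 in K382R cells, and the libraries did not overlap. The log2 fold change was 0.16 (SE 0.0276, adjusted p = 0.00207, limma with Benjamini-Hochberg adjustment), and 0.11 to 0.31 on the other 3 scales, each of them called.

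The ATF4 and CHOP branch moved in both directions. Of 11 genes, 5 rose (*Ddit3*, *Trib3*, *Chac1*, *Ppp1r15a* and *Psat1*), 3 fell (*Atf3*, *Phgdh* and *Shmt2*) and 3 were not called (*Asns*, *Atf5* and *Sesn2*; limma with Benjamini-Hochberg adjustment). The median log2 fold change was -0.03, which is 0.11 above that of all genes tested. Among all genes tested, 11.1% rose and 36.9% fell. After median-ratio scaling 6 of the 11 rose and none fell, beside 19.9% and 20.4% of all genes.

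*Trib3*, *Chac1*, *Ppp1r15a* and *Ddit3* rose on all 4 scales. *Trib3* (ENSMUSG00000032715.10, chr2:152179342-152185952, minus strand) encodes a pseudokinase induced by ATF4 and CHOP that acts back on both and on AKT. Its TPM was 195, 213 and 200 in K382Q and 122, 123 and 117 in K382R cells. Each K382Q library lay well above each K382R library. The means were 203 ± 9.54 (SD, n = 3) and 121 ± 2.77 (SD, n = 3), and the log2 fold change was 0.75 (SE 0.0403, adjusted p = 6.35e-06, limma). Besides *Ero1a*, it was the only member past 1.5-fold. *Chac1*, a glutathione-degrading enzyme and ATF4 target, had TPM of 127, 128 and 128 against 95.6, 103 and 96.1, a log2 fold change of 0.38. *Ppp1r15a*, the phosphatase subunit GADD34 that reverses eIF2α phosphorylation, had 128, 141 and 136 against 109.6, 112 and 111, a log2 fold change of 0.28. Neither gene's libraries overlapped between the mutants.

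*Ddit3* (ENSMUSG00000025408.16, chr10:127126643-127132157, plus strand) encodes CHOP, a factor that restrains C/EBP proteins in adipogenesis and promotes death under lasting stress. Its TPM was 362, 389 and 357 in K382Q and 303, 307 and 303 in K382R cells, without overlap. The log2 fold change was 0.28 (SE 0.037, adjusted p = 0.000572, limma). In GENCODE M39, *Mars1* on the other strand covers 64.1% of the exonic bases of *Ddit3*. The mean TPM of *Mars1* was 123 in K382Q and 133 in K382R cells, and the part of its reads in the *Ddit3* values was not tested.

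Of the 4 amino acid genes, 1 rose, 2 fell and 1 was not called, where 11.1% of all genes tested rose and 36.9% fell. *Asns*, asparagine synthetase, had TPM of 339, 323 and 322 in K382Q and 334, 337 and 336 in K382R cells, a log2 fold change of -0.03 with overlapping libraries (adjusted p = 0.418, limma). After median-ratio scaling it had 0.12 and was called higher. The ratio of *Trib3* to *Asns* was 0.618 ± 0.043 (SD, n = 3) in K382Q and 0.359 ± 0.00833 (SD, n = 3) in K382R cells. Of the serine and one-carbon genes, *Psat1* (ENSMUSG00000024640.10, chr19:15882042-15924701, minus strand), the most abundant gene of the branch, had TPM of 738, 720.5 and 729.6 in K382Q and 681, 702 and 691 in K382R cells. Its libraries did not overlap, and the log2 fold change was 0.08 (SE 0.0264, adjusted p = 0.0431, limma), or -0.01 and not called under quantile normalization. This call was lost without any of 5 single libraries (adjusted p of 0.0669 to 0.157, limma). *Phgdh*, the entry enzyme of serine synthesis, had 589.6 to 614 against 675 to 698 TPM (-0.20), and -0.05 without a call after median-ratio scaling. The mitochondrial enzyme *Shmt2* had 382 to 397 against 408 to 428 (-0.11). The fall of *Shmt2* was called on the TPM scale only, and its value was 0.04 after median-ratio scaling. Without any of 3 single libraries it was lost (adjusted p of 0.0583 to 0.0799, limma). On the other strand, *Ndufa4l2* overlaps 17.7% of the exonic bases of *Shmt2*, and its mean TPM was 23.6 in K382Q and 1.75 in K382R cells.

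*Atf3* had 48.3 to 52.5 TPM in K382Q and 57.2 to 60.4 in K382R cells (-0.21, adjusted p = 0.00553, limma), and was not called on the other 3 scales. *Atf5*, with roles in the mitochondrial stress response, had -0.06 and *Sesn2*, a leucine sensor, -0.03, and neither was called on the TPM scale. Under quantile normalization *Sesn2* had 0.13 and was called higher.

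The CARE letters (TGATGNAA, both strands) were found in 5 members, 13.5% of member promoters against 3.97% of all promoters: *Trib3*, *Chac1*, *Herpud1*, *Asns* and *Atf3*. Of these, 3 rose, *Atf3* fell and *Asns* was not called, with a median log2 fold change of 0.19, where 11.1% of all genes tested rose and 36.9% fell. After median-ratio scaling 4 rose and none fell, beside 19.9% and 20.4%. *Trib3* held its match 15 to 22 bases after the start. Windows of 30 bases around matches before the RefSeq start are given with the match in capitals, so that a gene that rose can be set beside one that fell and one that was level. The match of *Chac1* (chr2:119181519-119181548, plus strand) and that of *Atf3* (chr1:190915622-190915651, minus strand) are the same 8 letters, TTGCATCA, on the opposite strand, while *Asns* (chr6:7693214-7693243, minus strand) holds TGATGAAA. The windows of *Atf3* and *Asns* lie inside the longer genes of the tables, which start farther upstream than those of RefSeq.
Chac1: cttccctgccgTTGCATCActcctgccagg
Atf3: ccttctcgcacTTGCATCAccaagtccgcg
Asns: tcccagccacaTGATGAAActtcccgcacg

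The full letters of another element, the unfolded protein response element TGACGTGG, were in none of the member promoters and in 0.676% of all promoters, which says only that this window does not hold them. *Atf6*, *Manf* and *Hyou1* had no promoter in the table. Because the members were listed for these stress responses, their higher shares of ERSE, ERSE-II and CARE come with the list. All matches are descriptions of the sequence, and binding was not measured.

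**Figure D4:**
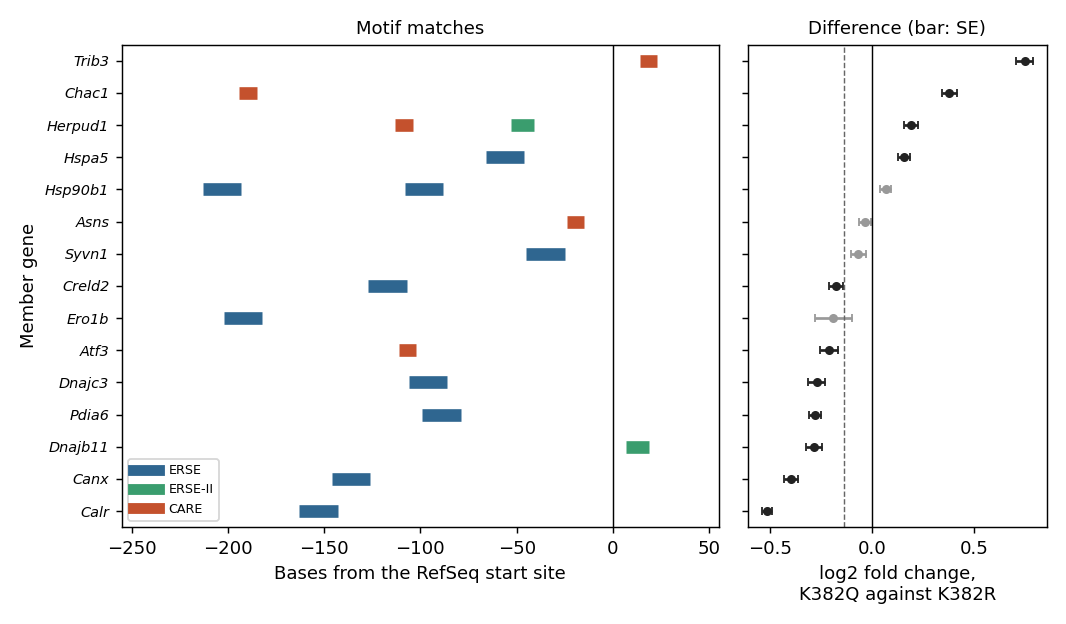
Left, position of each ERSE, ERSE-II and CARE match in the RefSeq promoters of the 15 members that hold one, in bases from the start site; right, log2 fold change of the same gene with its standard error (black: adjusted p under 0.05; dashed line: median of all genes tested). Genes are ordered by fold change: 3 genes with a CARE are at the top, and the ERSE genes run from *Hspa5* (0.16) down to *Calr* (-0.51).

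A wider list of 123 ER and integrated stress genes shows how the 38 sit within their pathway. Of these, 119 were tested (*Pdia2*, *Derl3*, *Ern2* and *Cbs* were not), 12 rose, 67 fell and 40 were not called (limma with Benjamini-Hochberg adjustment). The count of 12 was 7 without K382R replicate 3. Their median log2 fold change was -0.17, close to that of all genes tested. With median-ratio scaling the split was 34 and 39, around a median of -0.01. The shares of all genes tested were 11.1% higher and 36.9% lower, or 19.9% and 20.4% with median-ratio scaling.

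More genes fell than rose in each ER group on the TPM scale, as among all genes tested (11.1% rose and 36.9% fell). After median-ratio scaling 19.9% of all genes tested rose and 20.4% fell. Of 21 other folding enzymes and redox partners, 1 rose and 12 fell, or 5 and 9 after median-ratio scaling. Those that fell on the TPM scale held *Qsox1*, a sulfhydryl oxidase (-0.57), *Txndc5*, a PDI (-0.63), and the peroxidases *Gpx7* (-0.65) and *Gpx8* (-0.44). The peroxiredoxin *Prdx4*, which uses the peroxide that ERO1 makes, had 0.01 and was not called. Of 23 other chaperones, prolyl isomerases and glycoprotein folding genes, 1 rose and 15 fell, with a median of -0.30, and after median-ratio scaling the split was 5 and 11. This group held the calcium-binding *Rcn3* (-1.36), at 8.98 to 10.0 TPM in K382Q and 23.5 to 27.4 in K382R cells, and the prolyl isomerases *Fkbp11* (-1.05), at 13.4 to 14.0 against 27.5 to 29.9, and *Fkbp9* (-0.98), at 122 to 129 against 240 to 253. In none of these 3 did the libraries overlap.

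Of 20 other degradation genes 1 rose and 11 fell, or 6 and 7 after median-ratio scaling. *Derl1*, a channel component, was the one that rose on the TPM scale (0.18), while *Vcp*, the extracting ATPase, fell by 0.58 on the log2 scale. Of 20 other sensors, kinases, proteases and factors 2 rose and 13 fell, or 3 and 7 after median-ratio scaling. *Creb3l1*, an ER-bound factor related to ATF6 that drives collagen secretion, fell most, from 10.2 to 11.7 TPM in K382R cells to 3.31 to 4.12 in K382Q cells, a log2 fold change of -1.46. *Eif2ak2*, the double-stranded RNA kinase that also acts on eIF2α, fell by 0.71 on the log2 scale. Beside these values stand those of the 6 progenitor and fibroblast markers tested, with log2 fold changes of -1.25 to -0.25 and a median of -0.82. Their part in the values of *Rcn3*, *Fkbp11*, *Fkbp9* and *Creb3l1* was not tested.

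Other ATF4 targets moved in both directions. Of 22 tested, 7 rose and 8 fell, with a median of -0.06. After median-ratio scaling 10 rose and 4 fell, and the median turned to 0.09. All genes tested gave 11.1% higher and 36.9% lower on the TPM scale, and 19.9% and 20.4% after median-ratio scaling. *Vldlr*, a lipoprotein receptor, had TPM of 88.1 to 95.5 in K382Q and 41.4 to 46.0 in K382R cells (1.05), and *Ddit4*, an inhibitor of mTORC1, 446 to 498 against 230 to 240.3 (0.99). The libraries of neither gene overlapped. *Fgf21*, a hormone, had a log2 fold change of 0.49, while *Gdf15*, another secreted stress factor, had -0.72 and the amino acid carrier *Slc7a5* -0.51. Of 13 aminoacyl-tRNA synthetase genes, which ATF4 also induces, none rose and 8 fell on the TPM scale, with a median of -0.11, which is 0.02 above that of all genes tested. After median-ratio scaling 5 rose and 1 fell, and under quantile normalization 2 rose and 4 fell, without shares of all genes for the latter scale.

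**Figure D5:**
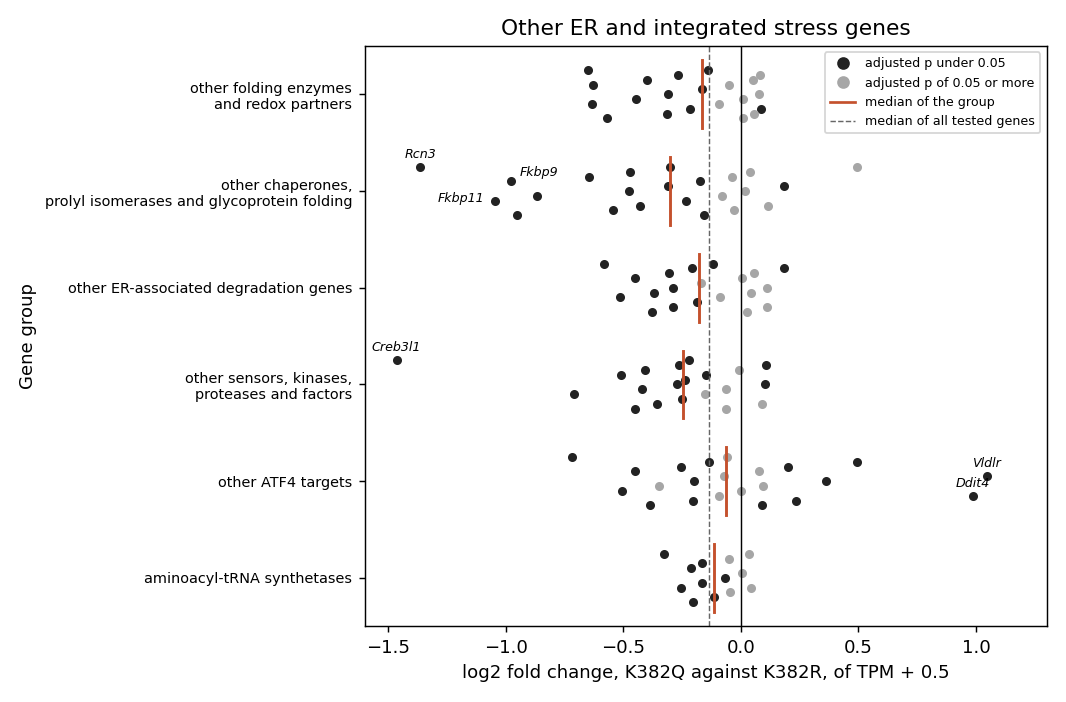
Log2 fold change, K382Q against K382R, of the 119 other ER and integrated stress genes tested, by group (points; black: adjusted p under 0.05), with the median of each group and of all genes tested. *Creb3l1* (-1.46), *Rcn3* (-1.36) and *Fkbp11* (-1.05) lie farthest to the left, and *Vldlr* (1.05) and *Ddit4* (0.99) farthest to the right.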

How the data were processed

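RNA of 3 PPARγ2 K382Q and 3 PPARγ2 K382R cultures was sequenced by the authors as 150-bp read pairs, which, per the labels and the methods, were aligned to GRCm39 with HISAT2 and quantified with StringTie. The release of the gene annotation is not given in the sources used here. The authors deposited 1 gene table per library with coverage (mean reads per base, not normalized), FPKM (scaled to the length of the gene and the aligned total) and TPM (scaled to the same sum in every library). The deposited coverage and FPKM gave the depth of each library through their commonest ratio. The counts that the authors tested were not analysed here. Repeated gene IDs, at most 5 per library, were summed.

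The members, their roles, the wider list and the markers were chosen with earlier results of these data known. The mutants were compared with limma 3.58.1 (R 4.3.3) with an intensity trend and no covariates. Its input was log2(TPM + 0.5) of all genes that reached 0.5 TPM in 3 or more libraries. P-values were adjusted by the Benjamini-Hochberg method over all genes tested. The pseudocount draws the fold changes of low genes towards 0. On data simulated from the K382Q and K382R libraries (15130 genes), the test recovered 80.3%, 86.6% and 98.5% of genes changed by 0.6, 1 and 2 on the log2 scale and called 13 unchanged genes. Only 66, 67 and 67 genes were changed there, about as many up as down, without the shift of the median gene seen in the data. All members but *Ero1a* and *Trib3* differed by less than 0.6, so these rates do not vouch for their calls.

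Every member is named, with full values for those called with a log2 fold change of at least 0.58 in size, the most abundant of each role and the 5 sensors and factors. Of the wider list, the 6 largest called changes are named by rule, and the others, like the per-library values of further members, were chosen after their values were seen. Promoters came from RefSeq (GRCm38.p6; 37 rows for 35 members), and all 37 were placed on GRCm39 by exact match. GENCODE M39 gave exon overlaps. It is not the release behind the tables, since only 14 of 39 member gene IDs shared a start or end with it. Alternatives were other pseudocounts, filters and scales, FPKM, no trend, array weights, a replicate block, each library left out and a fold of 1.5. Other steps used Python 3.11.15, pandas 2.3.3, numpy 2.4.6 and matplotlib 3.10.9.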

Additional observations from a re-analysis of the deposited data

How the results depend on the processing

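Over 16 alternative settings, 516 of 608 combinations of member and setting kept their direction and their side of the threshold, 50 kept their direction and lost a call, 8 kept it and gained one, and 34 changed sign, some with a change of call. For 15 members nothing changed in direction or call. The scale mattered most. Members that fell numbered 9 with median-ratio scaling and 9 with quantile normalization, against 15. In the wider list, 24 rose with FPKM, 34 with median-ratio scaling and 31 with quantile normalization, against 12, and 39 fell with median-ratio scaling and 44 with quantile normalization, against 67. Without an intensity trend 7 rose. At 1.5-fold, 2 members passed. Shares of all genes tested are given for the TPM and median-ratio scales only. The counts under the other settings, here and below, therefore have no background beside them. In the order FPKM, median-ratio, quantile, log2 fold changes turned to 0.03, 0.10 and 0.09 for *Manf*, 0.02, 0.09 and 0.10 for *Syvn1*, 0.07, 0.13 and 0.15 for *Atf6*, 0.07, 0.14 and 0.15 for *Ern1*, 0.05, 0.12 and 0.04 for *Asns*, 0.02, 0.09 and 0.01 for *Atf5*, and 0.06, 0.12 and 0.13 for *Sesn2*. Quantile normalization turned *P4hb* (-0.05), *Hsp90b1* (-0.01) and *Psat1* (-0.01), and median-ratio scaling *Shmt2* (0.04). The cause was not tested.

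With each library left out in turn, 8 to 10 members rose and 14 to 15 fell, and in the wider list 7 to 11 rose and 60 to 65 fell. The count of 7 was that without K382R replicate 3. The calls of *P4hb* (held without K382Q replicate 1 only), *Xbp1* (K382R replicate 3 only), *Psat1* (K382Q replicate 2 only), *Edem1* (K382Q replicate 2 and K382R replicate 3) and *Shmt2* (K382Q replicates 1 and 2 and K382R replicate 3) were lost without the other libraries, at adjusted p-values (limma) of 0.0534 to 0.166, and *Ero1b* gained one without K382R replicate 2 (-0.27). Ranges that crossed 0 were -0.03 to 0.03 for *Dnajb9*, -0.09 to 0.00 for *Manf*, -0.04 to 0.01 for *Atf6*, -0.05 to 0.03 for *Ern1* and -0.06 to 0.00 for *Sesn2*.

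The labels number the replicates of both mutants. Deviations of same-numbered libraries were nearly uncorrelated (-0.018, 0.051 and 0.022), as were those of the other pairs (-0.064 to 0.039). These values cannot tell whether same-numbered cultures were made together. With the replicate number as a block, 9 members rose and 15 fell, and in the wider list 7 rose. *Ero1b*, with the lowest coverage of the 38, also had the largest standard error, 0.0911, and the part of depth in it was not tested.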
